A study of Anser cygnoides with 6 samples.

Results

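The genes described here encode small leucine-rich proteoglycans, the large proteoglycan versican and matricellular proteins of the goose ovary. Of 10 such genes looked up by symbol in the deposited expression table, 8 were found among 14696 genes, namely DCN, ASPN, OGN, VCAN, TNC, SPARC, POSTN and THBS1. LUM and BGN matched no row and were not analysed here. The 6 ovary libraries of Anser cygnoides, the swan goose, form 2 groups of 3. The reproductive group was labelled with the reproduction stage. The broody group was labelled with the broodiness stage and came from geese given forced moulting and short illumination. The protocols give an age of 40 weeks and a programme of 11 h of light and 13 h of darkness for the animals of both groups. Broodiness, moulting and any difference in light cannot be told apart. The labels name neither the part of the ovary nor separate birds, and a p-value here therefore reflects the spread among these libraries alone, which may be technical.

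Small leucine-rich proteoglycans have a short curved protein core, and several of them bind collagen fibrils and regulate how fibrils form. Versican is a large proteoglycan that binds hyaluronan in loose, growing matrix. Matricellular proteins are secreted into the matrix and act mainly by changing how cells adhere, move and respond to growth factors. In the bird ovary, connective tissue and smooth muscle lie in the stroma and in the theca, the outer wall of the follicles.

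Of the 8 genes, 7 were lower in broody than in reproductive ovaries, and none was higher. The exception was THBS1, whose groups overlapped. The reproductive mean of the 7 genes was between 2.72 times (VCAN) and 12.7 times (TNC) the broody mean. Levels are FPKM, fragment counts scaled to transcript length and to library size, and differences are broody minus reproductive on the log2(FPKM + 1) scale, which understates changes at low FPKM. All 8 genes passed the filter of at least 1 FPKM in 3 or more libraries. Calls are by limma with Benjamini-Hochberg adjustment over the 11377 genes tested, at an adjusted p under 0.05. Of these genes 12.0% were called lower and 29.9% higher in broody libraries, or 18.8% lower and 16.7% higher with median-ratio scaling. These shares are the background for the counts of called genes in all lists below. The groups did not overlap, broody lower, for 18.2% of tested genes, and broody higher for 41.3%. The median difference was -1.76 over the 8 genes and 0.23 over all genes tested, and median-ratio scaling moved these medians to -2.01 and 0.00228. The calls needed both broody 1 and broody 2, since without either of these libraries 0 of the 8 genes passed, with a smallest adjusted p of 0.0525 and 0.0644. In each case 7 of the 8 genes kept an unadjusted p under 0.05, and 1 of the 11377 genes passed.

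**Figure D1:**
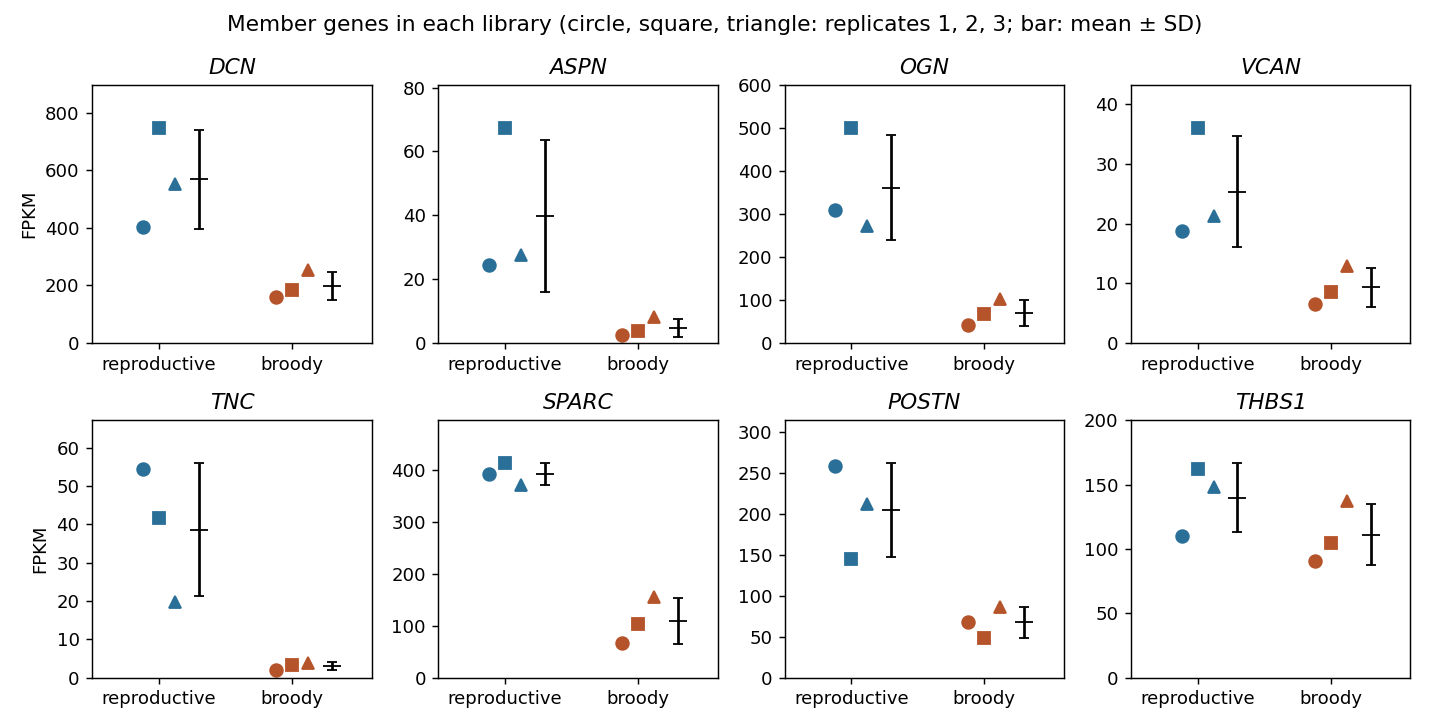
FPKM (vertical axis, from 0, with its own range in each panel) of the 8 genes in the reproductive (blue) and broody (brown) libraries, with circles, squares and triangles for replicates 1, 2 and 3 and bars for the mean ± SD (n = 3). The groups are separate in 7 panels and overlap for THBS1, where broody 3 at 137 FPKM lies above reproductive 1 at 110 FPKM.

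Decorin, encoded by DCN, binds collagen and growth factors of the TGF-beta family, and its gene had the highest mean FPKM of the 8 in both groups. DCN stood at 403, 747 and 553 FPKM in reproductive 1 to 3 and at 158, 184 and 254 FPKM in broody 1 to 3. The groups did not overlap, and the highest broody library was below the lowest reproductive library. The difference was -1.49 ± 0.28 (SE, n = 3 libraries a group), with an adjusted p of 0.0166 by limma and a 95% interval of -2.14 to -0.84.

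Osteoglycin, encoded by OGN, is a small proteoglycan of connective tissue that also takes part in collagen fibril formation. OGN stood at 310, 500 and 273 FPKM in the reproductive libraries and at 41.5, 67.2 and 101 FPKM in the broody libraries. The reproductive mean was 5.15 times the broody mean, and the groups did not overlap. The difference was -2.39 ± 0.35 (SE), with a limma adjusted p of 0.0126.

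Asporin, encoded by ASPN, is closely related to decorin and binds collagen and TGF-beta. ASPN was the scarcest of the 3 small proteoglycans, at 24.5, 67.4 and 27.7 FPKM in the reproductive libraries and at 2.52, 3.72 and 8.01 FPKM in the broody libraries. Reproductive 2 was far above the other libraries, and the lowest reproductive library still exceeded the highest broody library. The difference was -2.80 ± 0.46 (SE), with a limma adjusted p of 0.0139, with a 95% interval of -3.86 to -1.73. Its coefficient of variation was 59.9% in the reproductive and 60.8% in the broody group, against 30.3% and 24.9% for DCN.

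VCAN, the gene of versican, had 18.7, 36.0 and 21.3 FPKM in the reproductive libraries and 6.59, 8.49 and 12.9 FPKM in the broody libraries. The groups did not overlap. The ratio of VCAN to DCN in FPKM, 1 of 7 ratios chosen after seeing the data, was 0.0444 ± 0.00517 (SD, n = 3) in the reproductive and 0.0463 ± 0.00461 in the broody group, which overlapped (exact permutation p = 0.7). The VCAN difference was -1.34 ± 0.30 (SE), with a limma adjusted p of 0.0184.

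Tenascin C, encoded by TNC, is a large matricellular protein that is made mostly in developing and remodelling tissue. TNC had 54.4, 41.7 and 19.9 FPKM in the reproductive libraries and 1.88, 3.40 and 3.87 FPKM in the broody libraries. It had the largest difference of the 8 genes, -3.21 ± 0.37 (SE), with a limma adjusted p of 0.0112, and it ranked 8 from the most negative of the 11377 genes. Reproductive 3 was the lowest of its group and still stood far above each broody library.

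SPARC, also called osteonectin, binds collagen and calcium and assists collagen assembly. SPARC was the most even member among reproductive libraries, at 393, 415 and 371 FPKM, a coefficient of variation of 5.57%. The broody libraries held 67.8, 103 and 156 FPKM, a coefficient of variation of 40.8%, with none of them near the reproductive range. The difference was -1.92 ± 0.29 (SE), with a limma adjusted p of 0.0126.

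Periostin, encoded by POSTN, binds collagen and tenascin C and assists collagen cross-linking. POSTN had 259, 144 and 212 FPKM in the reproductive libraries and 68.5, 47.9 and 85.8 FPKM in the broody libraries. Reproductive 2, which was the highest library for 6 of the 8 genes, was the lowest reproductive library for POSTN. The groups did not overlap, and the difference was -1.59 ± 0.28 (SE), with a limma adjusted p of 0.0154.

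Thrombospondin 1, encoded by THBS1, restrains the growth of blood vessels and can activate latent TGF-beta. THBS1 had 110, 162 and 148 FPKM in the reproductive libraries and 91.0, 105 and 137 FPKM in the broody libraries. Broody 3 exceeded reproductive 1, so the groups overlapped. The difference was -0.33 ± 0.21 (SE), with a limma adjusted p of 0.231 and a 95% interval of -0.83 to 0.16. The estimates of the other 7 genes, from -3.21 to -1.34, lie below that interval, and the contrast between genes was not itself tested on this scale. The FPKM ratio of THBS1 to SPARC was 0.356 ± 0.0667 (SD, n = 3) in the reproductive and 1.08 ± 0.238 in the broody group, without overlap (exact permutation p = 0.1, or 0.14 adjusted over the 7 ratios).

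**Figure D2:**
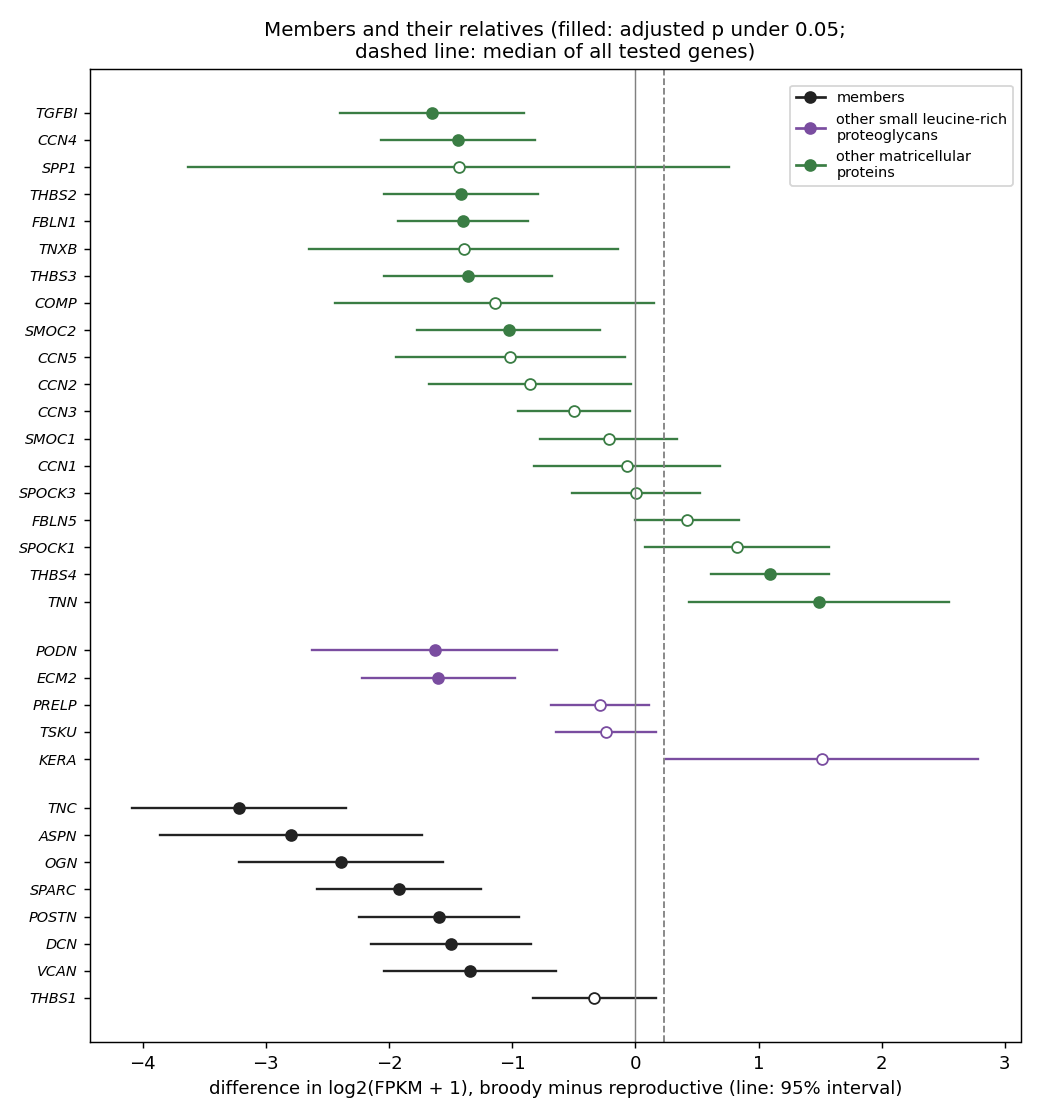
Difference in log2(FPKM + 1), broody minus reproductive (horizontal axis), with its 95% interval, for the 8 genes (black), other tested small leucine-rich proteoglycans (purple) and other tested matricellular genes (green), with filled points for an adjusted p under 0.05 by limma. The 7 called members lie between -3.21 and -1.34, left of the median of all tested genes at 0.23 (dashed line), and THBS1 lies at -0.33.

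The order of the levels differed between the groups. In reproductive libraries the order of mean FPKM was DCN, SPARC, OGN, POSTN, THBS1, ASPN, TNC and VCAN. OGN was wholly above POSTN and THBS1 was wholly above ASPN, while the other neighbours in this order overlapped. In broody libraries the order was DCN, THBS1, SPARC, OGN, POSTN, VCAN, ASPN and TNC. There DCN was wholly above THBS1 and POSTN was wholly above VCAN, and the other neighbours overlapped. THBS1 thus held place 5 in the reproductive and place 2 in the broody order, where its libraries overlapped those of SPARC. TNC, above VCAN in 2 of the 3 reproductive libraries, was last in the broody group.

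The 8 genes together took 0.491, 0.610 and 0.472% of all FPKM in reproductive 1 to 3 and 0.127, 0.153 and 0.226% in broody 1 to 3. The broody mean was lower by 0.355 percentage points, and the groups did not overlap (two-sided exact permutation p = 0.1, the smallest that 3 against 3 libraries allow). The share of this sum that each gene took is described next. THBS1 made up 6.98, 7.66 and 9.11% of the summed FPKM in reproductive libraries and 20.8, 20.1 and 18.1% in broody libraries. OGN made up 20.1 ± 3.47% (SD, n = 3) in the reproductive and 11.9 ± 2.12% in the broody group. TNC made up 2.22 ± 1.14% and 0.530 ± 0.111%, and ASPN 2.15 ± 0.901% and 0.781 ± 0.248%. For these 4 genes the shares did not overlap between the groups (exact permutation p = 0.1, or 0.2 adjusted over 8 genes). The shares of DCN, SPARC, POSTN and VCAN overlapped, with exact permutation p between 0.3 and 1.

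**Figure D3:**
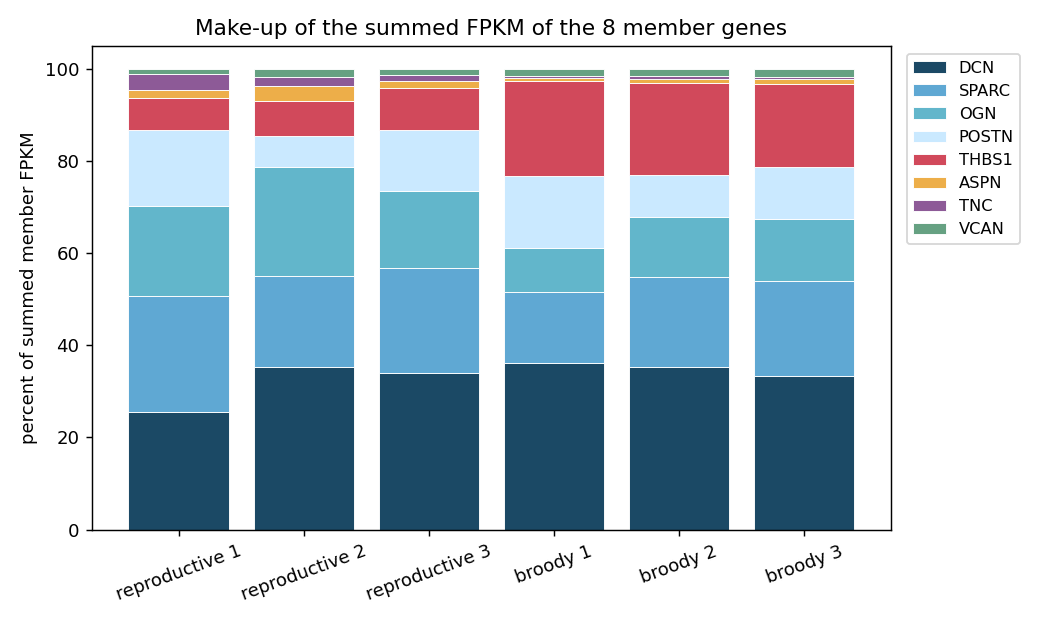
Percent of the summed FPKM of the 8 genes taken by each gene (stacked bars) in each of the 6 libraries. The red THBS1 segment covers 6.98 to 9.11% in reproductive and 18.1 to 20.8% in broody libraries, while DCN covers 25.6 to 35.3% and 33.4 to 36.1%.

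Fibrillar collagens, which several of these proteins bind, were lower in broody libraries as well. Of 11 fibrillar and associated collagen genes tested, 9 were lower and 0 higher, with a median difference of -2.26. The summed FPKM of COL1A1, COL1A2 and COL3A1, the main chains of collagen I and III, was 1765, 1294 and 980 in reproductive and 92.1, 193 and 373 in broody libraries. When the mean log2(FPKM + 1) of these 3 collagens was subtracted in each library, the median over the 8 genes was 0.88, against 2.87 over all genes tested. In that fit 0.00879% of tested genes were called lower and 96.3% higher, so a call as higher is what most genes showed. Of the 8 genes 0 were called lower by limma, and 1 of all tested genes was. At an unadjusted p under 0.05, 1 of the 8 passed, and it was higher.

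ASPN, OGN and TNC were the members whose difference was nearest to that of the collagens. Relative to collagen, the difference was -0.58 for TNC (95% interval -2.02 to 0.86) and -0.16 for ASPN (-1.61 to 1.28). OGN stood at 0.25 (-1.20 to 1.69). For these 3 genes the libraries of the groups overlapped on this scale. The POSTN libraries also overlapped, while those of SPARC, DCN, VCAN and THBS1 did not, with broody higher. The share of all tested genes without overlap on this scale was not counted. Whether this separation is particular to these members was therefore not tested, and 96.3% of tested genes were called higher in this fit. SPARC, POSTN, DCN and VCAN lay at 0.71, 1.04, 1.14 and 1.29, none of which passed (limma adjusted p between 0.0823 and 0.334). THBS1 was higher relative to collagen by 2.30, with a limma adjusted p of 0.00232. All genes share the spread of the collagen reference in this fit, so the moderated p and the 95% intervals above are uncertain. An alternative linear fit without moderation, chosen after seeing the data, let each gene keep its own spread. There the adjusted p of THBS1 was 0.0215, and no other member passed. The share of all tested genes that passed without moderation was not counted. The THBS1 difference of 2.30 was below the median of 2.87 over all tested genes, so its call is not particular to it. Without moderation the adjusted p was larger than by limma for THBS1 and POSTN, and smaller for the remaining members. Nearest to the threshold among those not passing were VCAN at 0.0546 and SPARC at 0.0698.

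**Figure D4:**
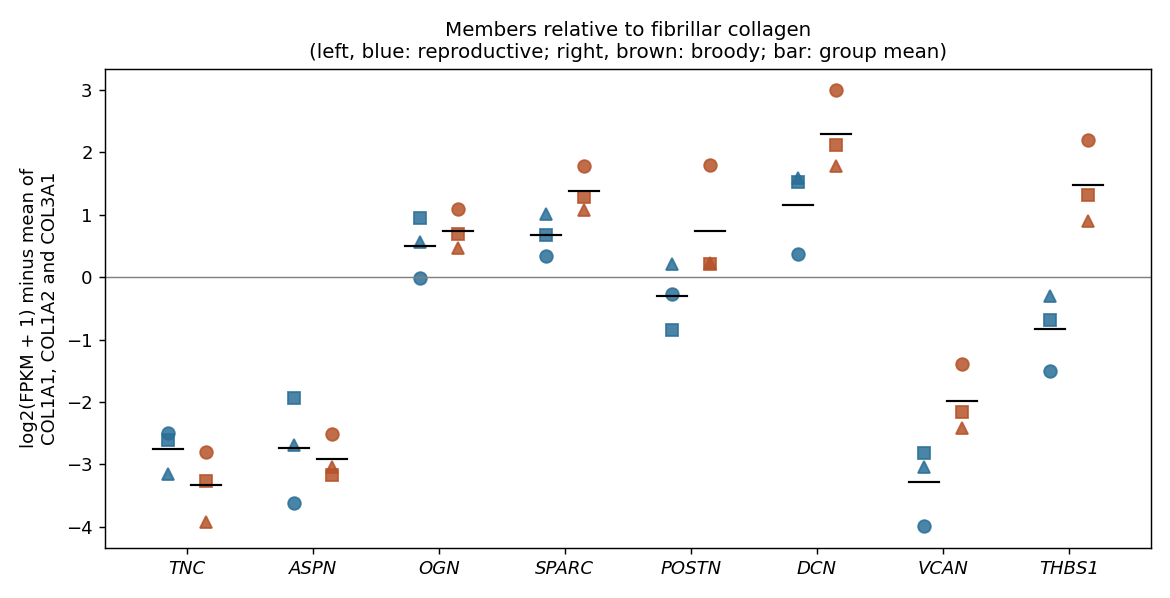
log2(FPKM + 1) of each of the 8 genes minus the mean log2(FPKM + 1) of COL1A1, COL1A2 and COL3A1 in the same library (vertical axis), for reproductive (blue, left) and broody (brown, right) libraries, with circles, squares and triangles for replicates 1, 2 and 3 and bars for group means. TNC, ASPN, OGN and POSTN overlap between the groups, POSTN by broody 2 at 0.20 just under reproductive 3, and the mean of THBS1 is -0.83 in reproductive and 1.47 in broody libraries.

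Broody libraries were not alike in these genes. Broody 3 had the highest broody FPKM of all 8 genes, and broody 1 was the lowest of the 6 libraries for 7 of them, the exception being POSTN, which was lowest in broody 2. The sums of the smooth muscle, fibroblast and theca steroid synthesis lists were, among broody libraries, lowest in broody 1 and highest in broody 3. The other marker lists did not have this order. The counts that follow stand against 12.0% lower and 29.9% higher over all tested genes. All 10 smooth muscle markers tested were lower in broody libraries, with summed FPKM of 416, 545 and 1152 in broody 1 to 3 and 3651 to 7991 in reproductive libraries. Of 11 stromal fibroblast markers tested, 8 were lower and 0 higher, with sums of 78.9, 92.8 and 143 FPKM in broody 1 to 3 and 205 to 384 FPKM in reproductive libraries. Macrophage markers were lower for 9 of 9 genes tested, with sums of 259, 231 and 401 FPKM in broody 1 to 3 against 554 to 1036 FPKM. Oocyte markers were higher for 10 of 10 genes tested, or 8 with median-ratio scaling. The count was 6 with the commonest transcript alone or without reproductive 1, and 5 without broody 3. Their sums were 1442, 1368 and 1575 FPKM in broody 1 to 3 against 172 to 750 FPKM. Endothelial markers were lower for 6 and higher for 2 of 9. Granulosa markers were higher for 2 of 5 and surface epithelium markers for 2 of 3. These 3 lists had their highest broody sum in broody 2. The surface epithelium count was 1 with median-ratio scaling and 0 without broody 3. Of 4 steroid synthesis genes listed for the theca, 1 was lower, HSD3B1. That call ended with no filter, with the commonest transcript alone and without each reproductive library in turn. Whether these genes mark the theca alone in this tissue was not tested. No defining marker of the smooth muscle, fibroblast, macrophage and oocyte lists that was found stood at 0 in a whole group. In bulk tissue, fewer cells of a type and less RNA per cell cannot be told apart, and the part of these cells in the differences was not tested.

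Other markers bear on single members or on the tissue label. THBS1 and SPARC are also made by thrombocytes, the clotting cells of bird blood, and 5 of 10 thrombocyte and red cell markers were found. These summed to 4.01 to 6.68 FPKM in broody and 26.2 to 60.8 FPKM in reproductive libraries, mostly F13A1, which macrophages also express. Their part in the differences was not tested. Ribosomal protein genes were lower for 10 and higher for 1 of 17 tested, with a median of -0.87. The counts were 15 and 0 with median-ratio scaling, and 5 and 0 with the replicate number as a block. With quantile normalization they were 5 and 0, with a median of -0.22. The sum of these genes was highest in reproductive 2, the library with the highest FPKM of 6 of the 8 members. Without reproductive 2 the same number of members, 7, was called lower. In the series' design text the tissue is called oviduct. Of 8 gland markers of the oviduct, TF and LYZ were found, and TF had 71.1 FPKM in reproductive 2 and 0.969 to 4.79 FPKM in the other 5 libraries.

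ASPN and OGN are close neighbours in the genome. In the reference assembly Taihu_goose_T2T_genome they lie on chromosome 10 in the run ECM2, ASPN, OMD, OGN, all small leucine-rich proteoglycan genes or relatives of them, and the gene CENPP spans this run. Because no source used here states the build of the deposited values, only the order of the genes was taken from it. ECM2, whose protein is a matrix component with leucine-rich repeats, had 83.8, 110 and 78.9 FPKM in reproductive and 19.2, 31.7 and 39.9 FPKM in broody libraries, a difference of -1.60 ± 0.27 (SE) with a limma adjusted p of 0.0148. OMD, the gene of osteomodulin, was below the filter and was not tested. It had 0.624 to 1.25 FPKM in reproductive and 0.334 to 0.402 FPKM in broody libraries. CENPP, a kinetochore gene, went the other way, with 9.72 to 22.7 FPKM in reproductive and 36.7 to 45.0 FPKM in broody libraries (limma adjusted p = 0.0172). No strand setting is stated, so reads of CENPP transcripts and of the genes within it cannot be fully separated. The same limit holds for DCN and SPARC, which each partly overlap a gene of a long non-coding RNA in this assembly. Beside the run, IPPK had 11.8 to 14.3 FPKM in reproductive and 15.5 to 18.7 FPKM in broody libraries without passing the threshold (limma adjusted p = 0.0583). NOL8 passed as higher (limma adjusted p = 0.0496), and IARS1 overlapped between the groups.

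**Figure D5:**
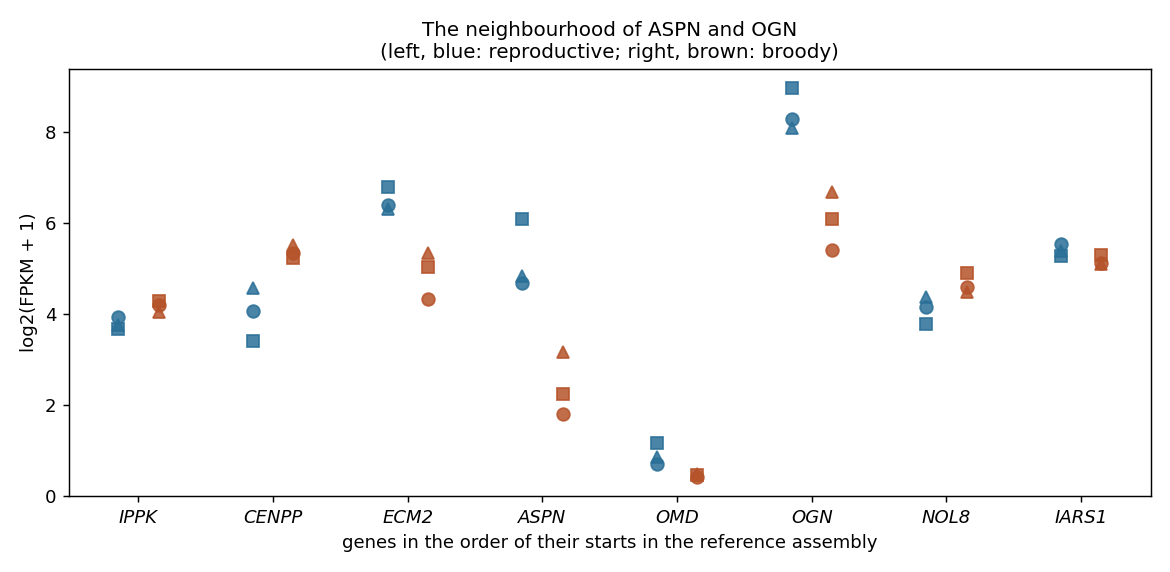
log2(FPKM + 1) (vertical axis) of 8 neighbouring genes on chromosome 10, in the order of their starts in the reference assembly (horizontal axis, not to scale), for reproductive (blue, left) and broody (brown, right) libraries, with circles, squares and triangles for replicates 1, 2 and 3. ECM2, ASPN, OMD and OGN are lower in each broody library than in each reproductive library, while CENPP, which spans them, is higher.

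A neighbour of DCN was also lower in broody libraries. The gene next to it on chromosome 1, LOC106036881, carries no name in the sources used here and was picked after its values were seen. Whether this gene is LUM or BGN, which matched no row by symbol, was not tested. LOC106036881 had 27.4, 194 and 92.1 FPKM in reproductive and 6.93, 12.9 and 24.5 FPKM in broody libraries. The difference was -2.50 ± 0.70 (SE), with a limma adjusted p of 0.0283. The libraries did not overlap between the groups, but reproductive 1 lay close to broody 3. BTG1, a regulator of cell growth on the other side of DCN, had 75.0 to 103 FPKM in reproductive and 52.1 to 68.6 FPKM in broody libraries (limma adjusted p = 0.0273). Beyond BTG1, PLEKHG7 had 0.351 to 1.12 FPKM in reproductive and 1.15 to 1.52 FPKM in broody libraries without passing (limma adjusted p = 0.0588). EEA1, next on that side, overlapped between the groups. EPYC, a small leucine-rich proteoglycan gene beyond LOC106036881, was below the filter. The remaining members, VCAN, TNC, SPARC, POSTN and THBS1, lie on chromosomes Z, 20, 14, 1 and 5, and genes beside them went in both directions.

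POSTN and TNC were the members with several transcript models, 12 and 5 of them, and the other 6 had a single model each. The commonest POSTN model made up 45.1, 43.9 and 42.2% of the gene's FPKM in reproductive libraries and 31.2, 42.1 and 25.2% in broody libraries. The groups did not overlap, and broody 2 lay close to the reproductive range (exact permutation p = 0.1, or 0.6 adjusted over 6 shares of transcripts). The commonest TNC model made up 80.2 to 85.8% in reproductive libraries and 55.1, 90.5 and 83.7% in broody libraries, which overlap. With the commonest model of each gene alone, 7 members were again called lower. The split of reads between models is an estimate of the authors' software, and at the 1.88 FPKM of TNC in broody 1 it rests on little signal.

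Of 12 more genes of the small leucine-rich proteoglycan family, 11 were found and 5 were tested, of which 2 were lower and 0 higher, with a median difference of -0.29. PODN, the gene of podocan, had 50.5 FPKM on average in reproductive and 14.4 FPKM in broody libraries, a difference of -1.63, and was not called without reproductive 3. ECM2, described above, was the other. KERA, the gene of keratocan, best known from the cornea, had 4.41, 1.24 and 1.23 FPKM in reproductive and 4.63, 18.2 and 4.82 FPKM in broody libraries. This difference of 1.51 did not pass (limma adjusted p = 0.0569), and it rested largely on broody 2. PRELP, whose protein anchors basement membrane to connective tissue, differed by -0.29 without passing.

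Other matricellular genes did not move as 1 block. Of 23 listed, 19 were tested, of which 6 were lower and 2 higher, with a median difference of -1.02. Among those lower were THBS2, a thrombospondin close to THBS1, at 104 against 37.4 FPKM on average, and CCN4, a secreted target of Wnt signalling, at 9.91 against 3.09 FPKM. FBLN1, a fibulin of elastic fibres and basement membranes, went from 46.8 to 16.9 FPKM. TGFBI, a periostin relative, went from 226 to 72.5 FPKM and SMOC2, a SPARC relative, from 14.7 to 6.84 FPKM. THBS3 went from 2.69 to 0.367 FPKM, a fall of 1.36 on the log2 scale. It met the filter only through the reproductive libraries, where it was higher. TGFBI and FBLN1 were not called with the commonest transcript alone. SMOC2 was not called with no filter, with the commonest transcript alone or without reproductive 2 or reproductive 3, and with that transcript alone the list held 3 lower and 1 higher.

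The 2 matricellular genes that rose were THBS4 and TNN. THBS4, a thrombospondin known from tendon and muscle, went from 2.99 to 7.43 FPKM, a difference of 1.09 with a limma adjusted p of 0.0166. TNN, the gene of tenascin N, went from 7.99 to 21.0 FPKM, a difference of 1.49 with a limma adjusted p of 0.0354, opposite to TNC. The TNN call ended under both median-ratio and upper-quartile scaling, with no filter, with the commonest transcript alone and without broody 3. The spread of SPP1, osteopontin, was wide, with a difference of -1.43 ± 0.94 (SE) that did not pass.

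Genes that build the sugar chains of proteoglycans come next, with the shares of 29.9% higher and 12.0% lower over all tested genes as the background. Among 23 tested genes for chondroitin and dermatan sulfate synthesis, broody libraries had 5 higher and 3 lower, with a median difference of 0.12. This balance depended on scaling, with 2 higher and 5 lower and a median of -0.12 under median-ratio scaling. CHSY1, a chondroitin synthase, fell from 6.25 to 2.77 FPKM on average, with a limma adjusted p of 0.0155. PAPSS1, which makes the sulfate donor, fell by 0.51 on the log2 scale and CHST14, the dermatan sulfate sulfotransferase, by 0.63. Both calls ended with the commonest transcript alone and without broody 3 or reproductive 2. That of PAPSS1 also ended with the replicate number as a block and without reproductive 1, and that of CHST14 with no filter and without reproductive 3. B4GALT7, an enzyme of the linker that joins chain and core, rose from 8.99 to 16.4 FPKM, and CHPF2, a chondroitin polymerizing factor, rose from 31.0 to 52.8 FPKM.

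Hyaluronan genes, partners of versican, were called in both directions. Of 11 tested, 3 were lower and 3 higher, or 5 lower and 2 higher with median-ratio scaling. With the commonest transcript alone 2 were lower and 1 higher. Over all tested genes 12.0% were lower and 29.9% higher, so the number higher was near that background. CD44, the main hyaluronan receptor, fell from 59.6 to 15.0 FPKM and CEMIP, which assists hyaluronan breakdown, fell from 19.0 to 5.15 FPKM. HMMR, a hyaluronan-binding protein that also acts on the mitotic spindle, rose from 18.4 to 42.7 FPKM. HAS3, a hyaluronan synthase, went from 0.415 to 1.24 FPKM on average, a rise of 0.68 on the log2 scale. It met the filter only through the broody libraries, where it was higher, so this call lies at the filter limit. The call of HAS3 ended with the replicate number as a block and without broody 3 or reproductive 2, and that of HMMR with the commonest transcript alone. HAS2, the synthase at the higher level, stood at 12.4 FPKM in reproductive and 11.6 FPKM in broody libraries and did not pass.

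The list of proteases that cut these matrix proteins also held PCOLCE2. Of 12 tested, 6 were lower and 0 higher, with a median of -0.81, against 12.0% lower and 29.9% higher over all tested genes. The number lower was 4 with no filter, without broody 3 or without reproductive 2. With the commonest transcript alone 5 were lower and 1 higher. CTSK, the collagen-cutting cathepsin K, went from 145 to 19.1 FPKM, a difference of -3.00 with a limma adjusted p of 0.0134. ADAMTS1 and ADAMTS9, which cleave versican, fell by 0.75 and 1.1 on the log2 scale, and PCOLCE2, an enhancer of collagen processing, fell by 1.56. ADAMTS9 was not called without reproductive 1. HTRA1, a secreted protease that cleaves decorin, stood at 97.1 and 119 FPKM and did not pass.

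Receptors were lower for 8 and higher for 2 of 18 tested, or 11 and 1 with median-ratio scaling, with a median of -0.39. The shares over all tested genes were 12.0% lower and 29.9% higher, or 18.8% and 16.7% with median-ratio scaling. The number lower was 5 without reproductive 3. It was 6 with the commonest transcript alone, without broody 3 or without reproductive 2. ITGA8, an integrin chain that pairs with ITGB1 and binds tenascin C, fell from 40.0 to 15.1 FPKM, and ITGB1 itself fell from 332 to 186 FPKM. STAB1, a scavenger receptor of SPARC on macrophages, fell from 22.2 to 7.14 FPKM. MET, a receptor kinase that decorin can bind, and VLDLR, which binds THBS1 and in birds carries yolk precursors into the oocyte, rose by 0.78 and 0.81. The call of VLDLR ended under median-ratio or upper-quartile scaling, with no filter, with the replicate number as a block (limma fit) and without broody 3. Of the TGF-beta genes, 4 of 7 were lower and 0 higher. TGFB3, a ligand, fell from 32.7 to 12.6 FPKM, LTBP1, which holds latent ligand in the matrix, fell by 0.94, and the receptors TGFBR3 and TGFBR2 fell by 1.13 and 0.96. The call of TGFBR2 ended with the commonest transcript alone and with the replicate number as a block. Without broody 1, or without broody 2, these lists held 0 calls by limma.

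The genes most like each member were taken as the named genes with the smallest root mean square distance between centred log2(FPKM + 1) profiles over the 6 libraries. Nearest to DCN were FAP, a surface protease of activated fibroblasts, at 0.0637, and FBLN1 at 0.0884. Nearest to OGN were COL6A3, a collagen VI chain, at 0.161 and FN1, fibronectin, at 0.182. Nearest to VCAN were EDNRA, an endothelin receptor, at 0.0283 and HSPG2, the proteoglycan perlecan, at 0.0968. ASPN was nearest to KCNMB1, a potassium channel subunit of smooth muscle, at 0.206 and to FAM129A at 0.212, and SPARC to ASB2 at 0.148 and to SYNPO2, an actin-binding protein of muscle, at 0.177. POSTN was nearest to MC5R, a melanocortin receptor, at 0.144 and to CRISPLD2 at 0.186, and TNC to HSPB1, a small heat shock protein, at 0.215 and to OSTN, the secreted peptide osteocrin, at 0.245. THBS1 was nearest to PCSK5, a proprotein convertase, at 0.0507 and to TRIL at 0.0567.

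The profiles were centred and not scaled, so these distances also reflect the size of the difference between the groups. The number of genes near a member therefore depends in part on that size. Within 0.25 of TNC lay 2 named genes and within 0.25 of ASPN and of POSTN 4 each, against 101 for DCN, 135 for VCAN and 1368 for THBS1. Among the members themselves, DCN and VCAN were closest, at 0.135, followed by ASPN and OGN at 0.311, and TNC and THBS1 were farthest apart, at 1.54. With 6 libraries in 2 separate groups these distances are a description of these libraries.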

How the data were processed

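Members and gene lists were chosen with earlier results of these data known. RNA of 6 ovary libraries was extracted with Trizol and sequenced after preparation with an Illumina TruSeq kit, per the labels' protocols. The deposited table holds FPKM that the authors computed for 33089 transcripts, and HISAT2 and StringTie are the tools named per the submitters' processing notes. The sources used here state no build, version or strand setting. FPKM summed to 319866 to 346625 per library and carry no read counts, so absolute depth is unknown. Relative depth was estimated roughly, from the commonest ratio of the lowest values of each library to those of broody 1. By this estimate the deepest library (broody 1) had 1.79 times the fragments of the shallowest (reproductive 3). The ratio rested on only 4 genes for reproductive 3 and on 9 to 13 for the other libraries compared, so it is uncertain.

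Transcripts were summed per gene identifier. Names came from the table (6611 genes) or from the reference table of Taihu_goose_T2T_genome (5742 genes), where 13873 identifiers matched. Genes with at least 1 FPKM in 3 or more libraries were fitted as log2(FPKM + 1). The fit used limma 3.58.1 in R 4.3.3 (eBayes with trend, no covariate, two-sided). It was tried on simulated data with independent noise and few changed genes, unlike these data. That trial checked the code and says nothing about the calls here. Single values were compared by exact permutation. Named genes were all members, up to 4 genes of each list with the smallest p, called genes of opposite direction, and the 2 nearest profiles of each member. TGFBI, THBS3, SMOC2, SPP1, HAS2, HTRA1 and the genomic neighbours were named after their values were seen. Alternatives covered pseudocount, filter, scaling, trend, replicate block, transcript choice, threshold and each library left out.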

Additional observations from a re-analysis of the deposited data

How the results depend on the processing

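The count of 7 members lower in broody libraries was the same with pseudocounts of 0.1 and 5, no filter, 4 other scalings, no trend, the commonest transcript alone, a threshold of 0.1 and without broody 3 or any reproductive library. It was 0 at a threshold of 0.01, and 0 to 7 with 1 library left out, the 0 being without broody 1 or broody 2, where the cause was not tested. All 8 differences kept their sign in each of 18 alternatives, and TNC ranged from -3.62 to -2.36 and THBS1 from -0.60 to -0.20. The alternatives of trend, filter, replicate block and threshold leave a difference unchanged, so its sign could not turn there. The same holds for the commonest transcript in genes with a single model. Relative to collagen, the count of members higher was 1, against 2 with a pseudocount of 5 and 2 at a threshold of 0.1, and 1 to 3 with 1 library left out, the 3 being without broody 3. The count lower relative to collagen was 0 in all alternatives run. With the replicate number as a block, 7 members were lower, and 3173 of all genes were called, against 1366 lower and 3400 higher without it. With the commonest transcript alone 3147 genes were called, and without broody 3 it was 3003. The deviations of same-numbered libraries correlated at 0.110, -0.158 and -0.203, so no pairing by number was seen. With 3 libraries a group, such correlations cannot exclude a pairing or a shared batch. Summed FPKM of the members stayed lower in broody libraries with the commonest transcript alone and with each library left out. Absolute depth is unknown, so how far it limits single genes was not tested.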
